A study of Mus musculus with 11 samples.

Results

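The 10 genes described here switch off the photoresponse of rods and cones and rebuild the cGMP that light removes. They were chosen by symbol: the guanylate cyclases Gucy2e and Gucy2f, their activators Guca1a and Guca1b, recoverin (Rcvrn) and the opsin kinase Grk1, Rgs9 and its anchor Rgs9bp, the exchanger Slc24a1, and phosducin (Pdc). All 10 were found by Ensembl identifier among the 37991 genes of the count table, and all 10 passed the filter on low counts in a table of 17099 tested genes. RNA came from the right retina of 11 mice at postnatal day 24. The wild-type groups were C57Bl/6J mice given saline (n = 2) or the LSD1 inhibitor GSK2879552 (GSK below, n = 3), and the other groups were mice of the strain rd10 B6.CXB1-Pde6brd10/Jrd10, labelled with a C57Bl/6J background, given saline (n = 3) or GSK (n = 3). Rd10 mice carry a mutant allele of Pde6b, the rod phosphodiesterase subunit that breaks down cGMP, in every cell, and the wild-type groups do not. Every animal, controls included, was injected intraperitoneally each day from day 9 to day 24, and the GSK dose was 4.2 mg/kg. Each library is 1 animal, so n counts animals.

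In the dark, rods keep cation channels open with cGMP, and light leads through transducin and phosphodiesterase to loss of cGMP, closed channels and a fall of calcium. Recovery needs the activated opsin phosphorylated and capped, transducin switched off by hydrolysis of its GTP, and cGMP made anew by membrane guanylate cyclases, which their activator proteins stimulate when calcium is low. Most of these proteins act in rods and cones alike, while GUCY2F, GUCA1B and the exchanger SLC24A1 are known mainly from rods. Mutations in several of the genes cause inherited retinal disease.

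Because the 10 genes moved together in what follows, their promoter windows were read for the core motifs of CRX and NRL, the transcription factors that drive photoreceptor genes. RefSeq windows (build GRCm38.p6) were at hand for 7 of the genes: Guca1a, Gucy2e, Gucy2f, Grk1, Rgs9, Slc24a1 and Pdc. The CRX core searched was TAATCC and the NRL half-site TGCTGA, each on both strands, in the 250 bases before the start of the gene. The CRX core was present in 3 of the 7 windows and in 6.38% of the 27025 gene windows of that table. The NRL half-site was present in 1 of the 7, that of Rgs9 (147 bases before the start), and in 15.8% of all windows. The 3 windows with a CRX core are shown 5′ to 3′ on the strand of the gene, with the match in capitals: Guca1a (chr17:47400607-47400856, minus strand), Gucy2e (chr11:69237023-69237272, minus strand) and Gucy2f (chrX:142196937-142197186, minus strand).
Guca1a: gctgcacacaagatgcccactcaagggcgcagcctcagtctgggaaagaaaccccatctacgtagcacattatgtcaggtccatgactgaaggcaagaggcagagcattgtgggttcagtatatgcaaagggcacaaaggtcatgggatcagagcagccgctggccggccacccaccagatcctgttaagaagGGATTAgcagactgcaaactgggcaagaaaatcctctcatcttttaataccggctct
Gucy2e: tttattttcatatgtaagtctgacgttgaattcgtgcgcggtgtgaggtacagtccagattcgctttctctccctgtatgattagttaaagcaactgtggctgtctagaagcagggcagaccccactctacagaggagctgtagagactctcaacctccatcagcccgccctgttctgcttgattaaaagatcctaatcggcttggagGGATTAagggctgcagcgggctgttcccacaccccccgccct
Gucy2f: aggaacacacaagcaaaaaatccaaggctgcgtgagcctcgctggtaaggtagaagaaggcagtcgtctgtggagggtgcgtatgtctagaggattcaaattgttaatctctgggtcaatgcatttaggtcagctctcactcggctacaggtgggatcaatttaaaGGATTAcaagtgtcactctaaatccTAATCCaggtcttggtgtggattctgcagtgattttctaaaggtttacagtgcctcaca
The match began 57 bases before the start in Guca1a and 42 bases before it in Gucy2e, on the reverse strand in each, while Gucy2f held matches at 84 and 59 bases, on opposite strands. Bases just after the start were found in an annotated transcript for Gucy2e and Gucy2f, but not for Guca1a or Rgs9. The starts used for Guca1a and Rgs9, and so their match positions, are thus less certain. These matches describe the letters only, since no binding was measured.

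Libraries held between 19657030 and 28053367 counts, so each of the 10 genes rested on at least 705 reads in every library. Levels are in CPM, read counts divided by a library size after trimmed-mean (TMM) correction. The words rose, fell and changed are kept for genes where the Benjamini-Hochberg adjusted p of edgeR's quasi-likelihood test was under 0.05 over all tested genes, and log2 fold changes carry their standard error after ±. Against the retina label, markers of rods, cones, bipolar, amacrine and ganglion cells and Müller glia were checked, and none was at 0 in any library. Crystallins and other lens genes (12 in all) had a sum of 7250 CPM in the second rd10 GSK library and 708 CPM in the second wild-type saline library, and no other library exceeded 16.9 CPM. Results that change without those 2 libraries are marked below. That setting keeps only replicate 1 of wild-type saline and replicates 1 and 3 of rd10 GSK. Where a call is lost in it, fewer animals and the lens reads cannot be told apart.

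Retinas of rd10 mice given saline fell below their wild-type counterparts in all 10 genes, and those given GSK rose above rd10 saline in all 10. For the former comparison 19.0% of all tested genes were called lower, and for the latter 17.6% were called higher. The libraries of the compared groups did not overlap for any of the 10 genes in either comparison, which was so for 29.7% (lower) and 22.5% (higher) of all genes. The median log2 fold change of the 10 genes was -1.99 in the former and 1.41 in the latter, beside medians of 0.02 and 0.01 for all genes. Both comparisons use the rd10 saline libraries. Counts from a whole retina cannot tell fewer cells of a type from less RNA per cell, and this holds for each value given here.

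**Figure D1:**
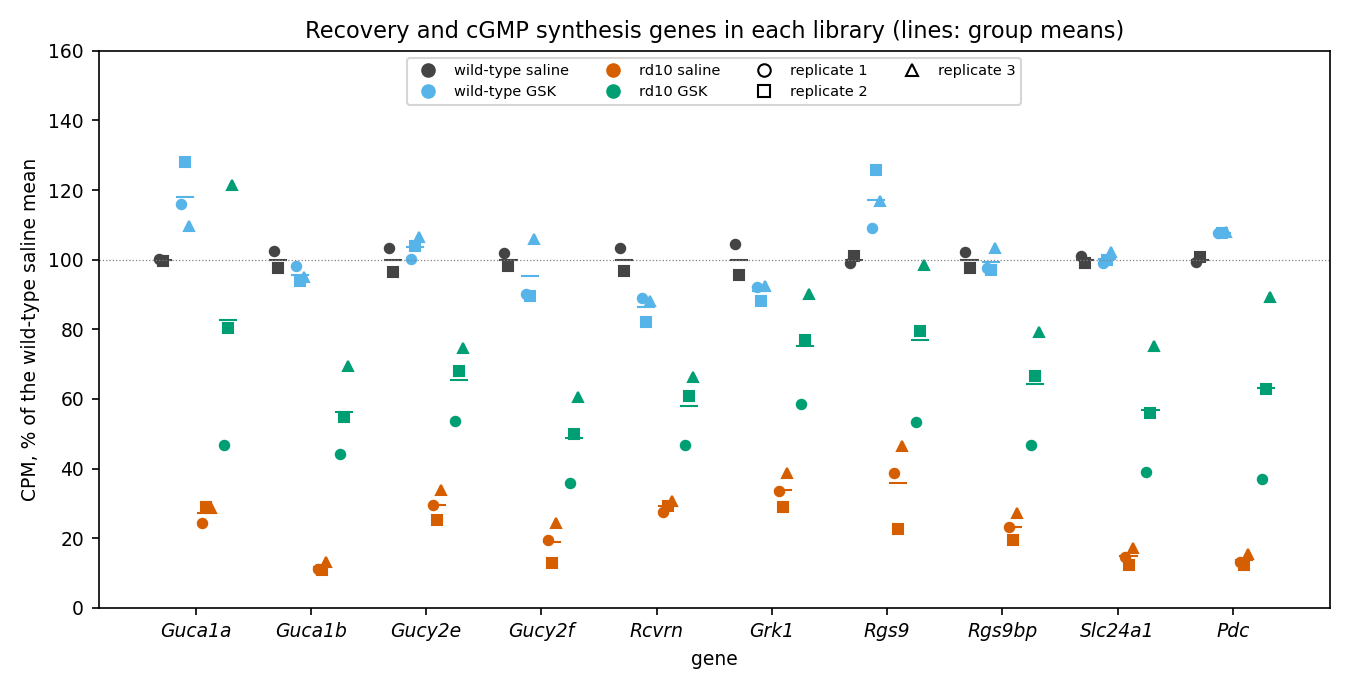
Level of each of the 10 genes in each library, as a percentage of that gene's wild-type saline mean (vertical axis, CPM scaled by TMM), by gene (horizontal axis). Points are single animals, with the shape giving the replicate number, and lines are group means. Every rd10 saline point lies below every rd10 GSK point of the same gene, and rd10 GSK replicate 1 is the lowest and replicate 3 the highest of its group for all 10 genes.

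Among the guanylate cyclases, Gucy2e (ENSMUSG00000020890) encodes the one used by rods and cones, and stood at 861 and 803 CPM in wild-type saline, 834, 865 and 888 in wild-type GSK, 245, 211 and 282 in rd10 saline and 446, 566 and 621 in rd10 GSK. It fell in rd10 saline (-1.76 ± 0.14, adjusted p = 6.29e-06) and rose with GSK in rd10 (1.15 ± 0.12, adjusted p = 8.94e-05), to 65.4% ± 10.7 of the wild-type saline mean (SD, n = 3). The rd10 GSK libraries lay between the other groups without touching them. Gucy2f (ENSMUSG00000042282), the other retinal cyclase of photoreceptors, was at 259 and 250.0 CPM in wild-type saline, 229.7, 228 and 269.6 in wild-type GSK, 49.6, 32.5 and 62.0 in rd10 saline and 91.6, 127 and 154 in rd10 GSK. Its fall in rd10 saline was larger (-2.40 ± 0.27, adjusted p = 0.000228), and with GSK it rose by 1.37 ± 0.25 (adjusted p = 0.00372) to 48.8% ± 12.3 of wild-type saline (n = 3), the lowest such percentage of the 10 genes. Gucy2f lies on the X chromosome, and the level of Xist, which is made in females, was at most 0.338 CPM in 4 libraries and at least 780 CPM in the other 7. The 4 were wild-type GSK replicate 2, rd10 saline replicate 2 (the lowest for Gucy2f) and rd10 GSK replicates 1 and 3, which were the lowest and highest of their group, and the part of sex in these values was not tested.

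Of the activators of the cyclases, Guca1a (ENSMUSG00000023982) encodes GCAP1, a calcium-sensing activator found in rods and cones, and its libraries read 472 and 469 CPM in wild-type saline, 546, 603 and 516 in wild-type GSK, 115, 136 and 134 in rd10 saline and 219, 378 and 571 in rd10 GSK. Guca1a fell in rd10 saline (-1.87 ± 0.31, adjusted p = 0.00194) and rose with GSK in rd10 (1.60 ± 0.29, adjusted p = 0.00385). The rd10 GSK libraries were far apart, from 46.6% of wild-type saline in replicate 1 to 121% in replicate 3, which lay above both wild-type saline libraries. Guca1b (ENSMUSG00000023979) encodes GCAP2, the other activator, with 1226 and 1166 CPM in wild-type saline, 1176, 1122 and 1138 in wild-type GSK, 132, 131 and 158 in rd10 saline and 530.0, 657 and 829.9 in rd10 GSK. It had the largest fall of the 10 genes in rd10 saline (-3.09 ± 0.16, adjusted p = 7.07e-07), down to 11.7% ± 1.30 of wild-type saline (n = 3), and the largest rise with GSK (2.26 ± 0.14, adjusted p = 4.50e-06), to 56.2% ± 12.6 (n = 3). All its rd10 GSK libraries stayed below all wild-type libraries.

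Of the genes that act on the activated opsin, Rcvrn (ENSMUSG00000020907) encodes recoverin, the calcium sensor that holds back the kinase GRK1, and was the most abundant of the 10 per length. It stood at 1392 and 1300 CPM in wild-type saline, 1196, 1105 and 1187 in wild-type GSK, 371, 395 and 413 in rd10 saline and 628, 819 and 892 in rd10 GSK. The rd10 saline libraries were close together, near 29.2% of wild-type saline, and the change was -1.78 ± 0.12, adjusted p = 1.88e-06. In rd10 given GSK, Rcvrn rose by 0.99 ± 0.11 (adjusted p = 6.82e-05), the smallest estimate of the 10. Grk1 (ENSMUSG00000031450), the kinase that phosphorylates activated opsins, was at 1753 and 1602 CPM in wild-type saline, 1547, 1476 and 1552 in wild-type GSK, 563, 486 and 651 in rd10 saline and 984, 1289 and 1513 in rd10 GSK. It fell by 1.57 ± 0.16 on the log2 scale in rd10 saline (adjusted p = 4.41e-05) and rose by 1.15 ± 0.15 with GSK (adjusted p = 0.000280). Replicate 3 of rd10 GSK lay within the range of the wild-type GSK libraries for Grk1, and the other rd10 GSK libraries lay below it.

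Of the genes that switch off transducin, Rgs9 (ENSMUSG00000020599) encodes the protein that speeds GTP hydrolysis on transducin, and read 614 and 626 CPM in wild-type saline, 676, 779 and 724 in wild-type GSK, 240.0, 141 and 288 in rd10 saline and 331, 492 and 610.0 in rd10 GSK. The gene-level counts cannot separate its retinal isoform from the longer one known from the brain. Rgs9 had the smallest fall of the 10 in rd10 saline (-1.48 ± 0.30, adjusted p = 0.00526) and the widest rd10 saline libraries, with replicate 2 at 22.8% of wild-type saline and replicate 3 at 46.4%. Its rise with GSK in rd10 (1.10 ± 0.28, adjusted p = 0.0173) was the 1 call among the 10 that other settings ended: adjusted p was 0.0620 without rd10 GSK replicate 3, 0.0650 without the lens-bearing libraries and 0.0744 with only the rd10 groups fitted. Rgs9bp (ENSMUSG00000056043) encodes R9AP, which ties RGS9 to the disc membrane, and was at 941 and 898 CPM in wild-type saline, 897, 891 and 950.4 in wild-type GSK, 213, 180.0 and 250.2 in rd10 saline and 429, 612 and 728 in rd10 GSK. It fell in rd10 saline (-2.10 ± 0.19, adjusted p = 3.77e-05) and rose with GSK (1.46 ± 0.18, adjusted p = 0.000320), and its rd10 GSK libraries lay between the other groups.

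Slc24a1 (ENSMUSG00000034452) encodes the rod sodium, calcium and potassium exchanger that removes calcium from the outer segment, with 1888 and 1853 CPM in wild-type saline, 1851, 1868 and 1911 in wild-type GSK, 276, 232 and 324 in rd10 saline and 732, 1049 and 1408 in rd10 GSK. Its level in rd10 saline was 14.8% ± 2.45 of wild-type saline (n = 3; -2.75 ± 0.23, adjusted p = 2.87e-05), and in rd10 GSK 56.8% ± 18.1 (n = 3; 1.94 ± 0.21, adjusted p = 0.000216 against rd10 saline). Pdc (ENSMUSG00000006007), the phosducin that binds the βγ subunits of transducin, had the most reads of the 10, at 2993 and 3037 CPM in wild-type saline, 3247, 3248 and 3253 in wild-type GSK, 398, 371 and 465 in rd10 saline and 1116, 1893 and 2692 in rd10 GSK. It fell in rd10 saline (-2.87 ± 0.29, adjusted p = 0.000116) and rose with GSK in rd10 by 2.21 ± 0.27 (adjusted p = 0.000477), and its rd10 GSK libraries ran from 37.0% to 89.3% of wild-type saline. Both genes were below every wild-type library in all 6 rd10 libraries.

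Per kilobase of annotated exon, the wild-type saline levels had the order Rcvrn (1294 ± 62.1 CPM per kb, SD, n = 2), Pdc (900.0 ± 9.33), Guca1a (539 ± 2.47), Guca1b (490.0 ± 17.4), Slc24a1 (359 ± 4.80), Grk1 (191 ± 12.2), Rgs9bp (139 ± 4.59), Rgs9 (97.0 ± 1.37), Gucy2e (90.5 ± 4.46) and Gucy2f (31.4 ± 0.818). The cyclases were thus the least abundant transcripts of the set and the calcium sensors and phosducin the most abundant. In rd10 saline Rcvrn stayed first at 378 ± 20.5 CPM per kb (n = 3), Guca1a (147 ± 13.4) stood above Pdc (123 ± 14.6), and Guca1b (57.5 ± 6.37), Grk1 (64.5 ± 9.36) and Slc24a1 (53.2 ± 8.79) followed. The last 3 had overlapping ranges of mean ± SD, as did Rgs9 (34.9 ± 11.7), Rgs9bp (32.5 ± 5.33) and Gucy2e (26.7 ± 3.87), although Grk1 stood above Slc24a1 and Rgs9bp above Gucy2e within each rd10 saline library. Lengths are exon unions of GENCODE M21, so a gene with exons unused in the retina reads low on this scale.

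Between wild-type GSK and wild-type saline retinas none of the 10 genes passed the edgeR test over all groups (0 called, and 0 with unadjusted p under 0.05, where 0.532% of all genes were called). DESeq2 and limma-voom also called 0. The log2 fold changes ran from -0.21 ± 0.12 for Rcvrn to 0.24 ± 0.32 for Guca1a. That test takes its spread from all 4 groups, relative to the level. In CPM the rd10 GSK libraries had the largest SD for each of the 10 genes. Relative to the mean, rd10 saline was wider than rd10 GSK for Rgs9 (223 ± 74.8 against 478 ± 140 CPM) and Gucy2f (48.1 ± 14.8 against 124 ± 31.3). With only the wild-type groups fitted, 3 of the 10 genes changed, where 3.53% of all genes were called higher and 2.11% lower: Guca1a rose (0.24 ± 0.06, edgeR adjusted p = 0.0196), Rgs9 rose (0.23 ± 0.05, adjusted p = 0.0121) and Rcvrn fell (-0.21 ± 0.05, adjusted p = 0.00695). In the plain levels, all 3 GSK libraries lay above both saline libraries for Guca1a, Rgs9 and Pdc, and below both for Rcvrn and Grk1, while such a gap was found for 17.2% (higher) and 17.3% (lower) of all genes. The groups hold 3 and 2 animals.

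The effect of GSK differed between the genotypes for 8 of the 10 genes by the interaction test, all toward a higher level in rd10, where 7.49% of all genes were called in that direction. The largest differences were those of Guca1b (2.32 ± 0.20, adjusted p = 0.000140), Pdc (2.10 ± 0.38, adjusted p = 0.0101) and Slc24a1 (1.93 ± 0.31, adjusted p = 0.00477). The other 5 differences lay between 1.10 (Gucy2e) and 1.47 (Rgs9bp). Guca1a (1.36 ± 0.42, adjusted p = 0.0749) and Rgs9 (0.87 ± 0.41, adjusted p = 0.218) did not pass. Without the lens-bearing libraries 5 genes passed, with Gucy2f (adjusted p = 0.166), Rgs9bp (0.0634) and Pdc (0.0794) lost. The call of Gucy2f was also lost without wild-type saline replicate 1 or 2, without any 1 of the wild-type GSK libraries, without rd10 saline replicate 1 and without rd10 GSK replicate 2 or 3 (adjusted p between 0.0615 and 0.114), and with no filter on low counts (0.0738).

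Set against wild-type retinas given the same drug, rd10 GSK retinas remained lower in 6 of the 10 genes, where 10.9% of all genes were called lower. These were Gucy2f (-0.96 ± 0.24, adjusted p = 0.0213), Slc24a1 (-0.82 ± 0.21, adjusted p = 0.0194), Guca1b (-0.77 ± 0.14, adjusted p = 0.00372), Gucy2e (-0.66 ± 0.12, adjusted p = 0.00405), Rgs9bp (-0.63 ± 0.17, adjusted p = 0.0263) and Rcvrn (-0.58 ± 0.11, adjusted p = 0.00372). The other 4 had lower means that did not pass: Pdc (-0.77 ± 0.26, adjusted p = 0.0571), Rgs9 (-0.60 ± 0.28, adjusted p = 0.144), Guca1a (-0.51 ± 0.28, adjusted p = 0.222) and Grk1 (-0.27 ± 0.14, adjusted p = 0.189). Libraries of the 2 groups overlapped for Guca1a and Grk1 alone, so 8 of the 10 were lower without overlap, against 21.4% of all genes. The number that passed ran from 3 to 9 as single libraries were left out. It was 3 without any 1 wild-type GSK library, without rd10 GSK replicate 2 or without the lens-bearing libraries, and 9 without rd10 GSK replicate 3. Guca1b, Gucy2e and Rcvrn passed in every setting that was run.

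**Figure D2:**
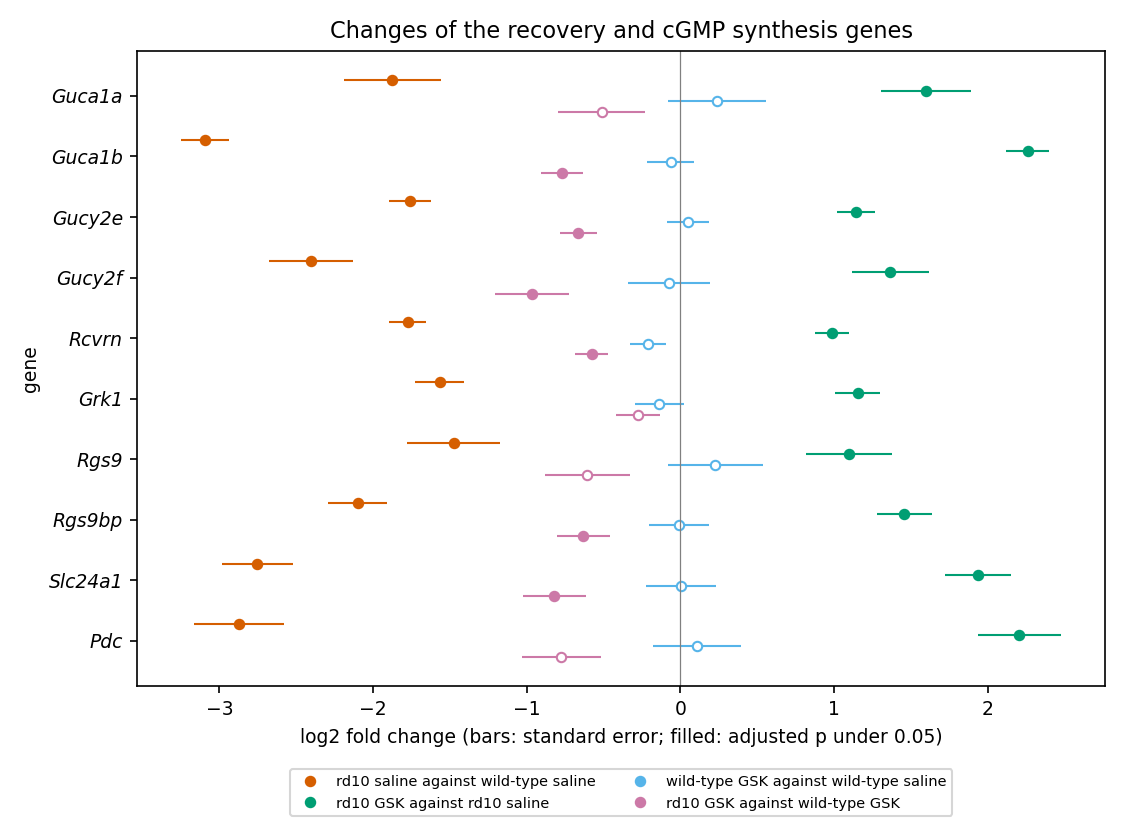
Log2 fold change (horizontal axis) of each of the 10 genes (vertical axis) in 4 comparisons, with bars of 1 standard error from edgeR. Filled points passed an adjusted p of 0.05: all 10 for rd10 saline against wild-type saline (left) and for rd10 GSK against rd10 saline (right), 6 for rd10 GSK against wild-type GSK, and 0 for wild-type GSK against wild-type saline.

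Levels within the rd10 GSK group differed by library in 1 pattern. Replicate 1 was the lowest and replicate 3 the highest for all 10 genes, an order held by 25.3% of all tested genes. With wild-type saline set to 100%, the geometric mean of the 10 genes was 45.7%, 64.8% and 80.9% in rd10 GSK replicates 1, 2 and 3, while the rd10 saline animals had 21.9%, 18.9% and 25.7%. A reference list of 8 other rod genes, among them the transducin gene Gnat1, the phosphodiesterase gene Pde6a and the channel gene Cnga1, stood at 40.7%, 58.7% and 73.7% in the same rd10 GSK libraries, and at 17.9%, 18.0% and 21.4% in rd10 saline. In wild-type GSK the 10 genes were at 99.6%, 101% and 103% and the rod list at 95.9%, 93.7% and 92.5%. Other lists moved in the same libraries: 6 Müller glia genes were at 155% to 164% of wild-type saline in rd10 saline and 81.3% to 100% in rd10 GSK, 9 bipolar genes at 115% to 116% and 83.4% to 88.2%, 10 cone genes at 87.5% to 94.2% and 62.7% to 87.6%, and 8 microglia genes at 660% to 803% and 189% to 372%. A list of 6 erythroid genes moved the same way as the 10, at 28.7% to 30.3% of wild-type saline in rd10 saline and 49.9% to 82.0% in rd10 GSK, though with replicate 1 the highest and replicate 3 the lowest in rd10 GSK. All 6 fell in rd10 saline (median log2 fold change -1.74) and 3 rose with GSK in rd10 (median 0.72). The 8 ganglion cell genes were at 91.0% to 92.8% and 70.2% to 78.5%, with 3 lower in rd10 saline and 7 lower with GSK in rd10. In wild-type GSK the ganglion cell list was at 81.6% to 84.4%. Of its genes 2 were called lower there, where 0.532% of all genes were called in either direction. Of the lists above, 4 of 6 Müller glia, 6 of 9 bipolar, 1 of 10 cone and 8 of 8 microglia genes rose in rd10 saline, and 5, 8, 4 and 8 genes of these lists fell with GSK in rd10. Over all genes 21.5% were called higher and 19.0% lower in rd10 saline, and 17.6% and 15.2% with GSK in rd10. Of 20 inner retina genes, used below as another scale, 16 fell with GSK in rd10 under TMM. Falls under TMM are relative to the other genes of each library. The inner retina scale gives these 20 genes an equal geometric mean in every library. They include most of the bipolar and ganglion cell genes above, so that scale cannot decide whether those genes fell. Sums over the lists ran from 3818 to 8702 CPM for Müller glia, 1704 to 2389 for bipolar, 1499 to 2068 for cone and 54.3 to 436 for microglia, 31.8 to 108 for erythroid and 1334 to 1996 for ganglion cell genes, and none of these genes was at 0 in any library. Their part in the values of the 10 genes was not tested.

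**Figure D3:**
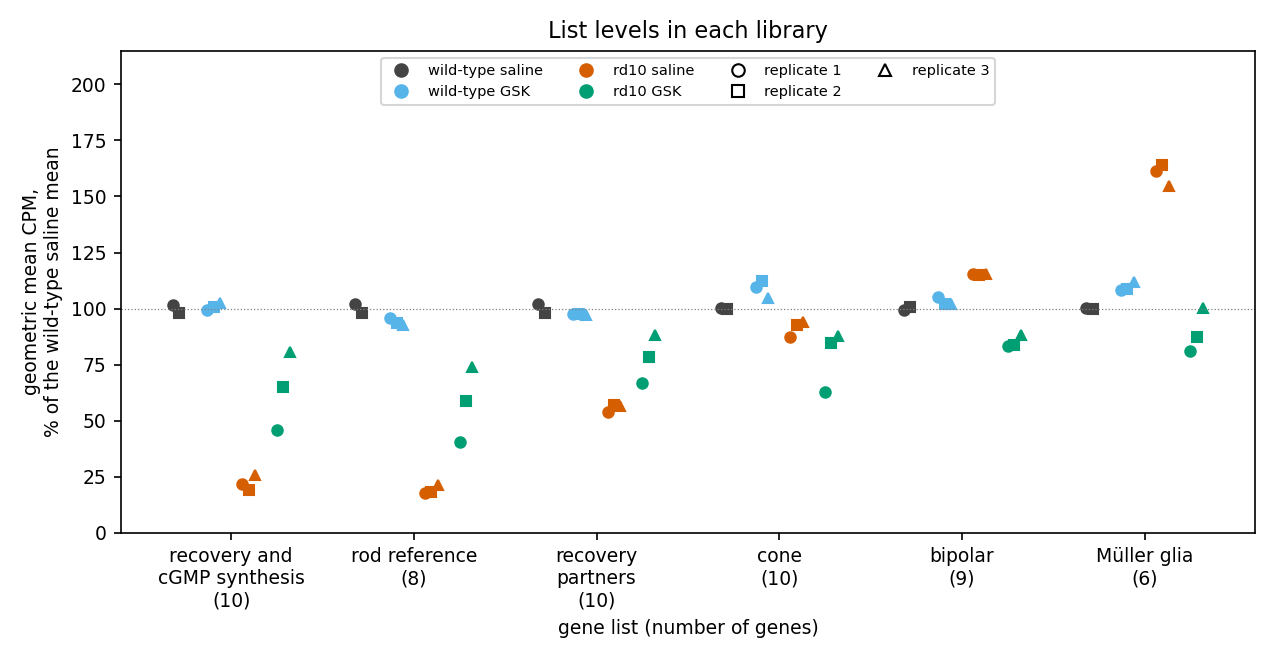
Geometric mean level of 6 gene lists in each library, as a percentage of wild-type saline (vertical axis), by list (horizontal axis). Points are single animals. The 10 recovery and cGMP synthesis genes run alongside the 8 rod reference genes, while the cone, bipolar and Müller glia lists stay between 62.7% and 164%.

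Whether the 10 genes moved as far as the rod cascade itself was asked by scaling each library to the 8 reference rod genes and fitting all genes again. On this scale nearly all genes of the retina appear higher in rd10 saline (98.1% called higher, 0.187% lower) and lower with GSK in rd10 (93.4% lower, 0.310% higher), so the values of the 10 genes are read against the rod genes only. In rd10 saline 5 of the 10 were higher relative to the rod genes and 2 lower. Rgs9 (0.90 ± 0.24, adjusted p = 0.000224), Grk1 (0.82 ± 0.23, adjusted p = 0.000482), Gucy2e (0.63 ± 0.24, adjusted p = 0.00876), Rcvrn (0.62 ± 0.24, adjusted p = 0.00878) and Guca1a (0.52 ± 0.24, adjusted p = 0.0311) were higher, thus lost less than the rod genes, and Guca1b (-0.70 ± 0.23, adjusted p = 0.00245) and Pdc (-0.49 ± 0.22, adjusted p = 0.0302) were lower. Gucy2f (-0.03 ± 0.25), Rgs9bp (0.28 ± 0.24) and Slc24a1 (-0.37 ± 0.23) did not pass. Among these calls, those of Guca1b, Grk1 and Rgs9 passed in every setting run. Without wild-type saline replicate 1, without replicate 2 or without the lens-bearing libraries, only 2 of the 10 were higher and 1 lower. Without rd10 saline replicate 2, Guca1a (adjusted p = 0.114) and Pdc (0.0780) also did not pass.

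With GSK in rd10, Guca1b (0.69 ± 0.21, adjusted p = 0.00126) and Pdc (0.58 ± 0.20, adjusted p = 0.00511) rose by more than the reference rod genes, and Rcvrn (-0.58 ± 0.21, adjusted p = 0.00590), Rgs9 (-0.48 ± 0.21, adjusted p = 0.0238) and Grk1 (-0.41 ± 0.20, adjusted p = 0.0458) rose by less. The 5 others did not pass, with Gucy2e closest (-0.41 ± 0.21, adjusted p = 0.0544). Both rod-scaled comparisons use the rd10 saline libraries, so their values are only set side by side. Without rd10 saline replicate 1, rd10 saline replicate 3, rd10 GSK replicate 2 or the lens-bearing libraries, 1 gene (Rcvrn) rose by less than the reference. The call of Grk1 was also lost without any 1 wild-type library (adjusted p between 0.0656 and 0.0671).

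**Figure D4:**
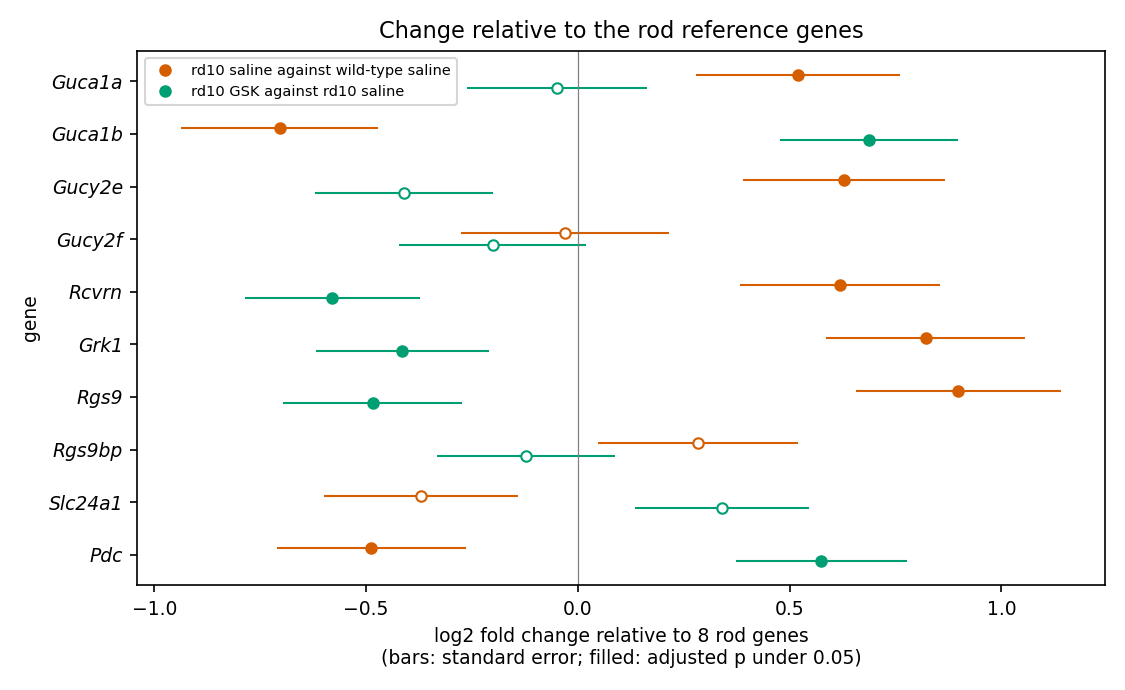
Log2 fold change relative to 8 reference rod genes (horizontal axis) of the 10 genes (vertical axis), with bars of 1 standard error. Filled points passed an adjusted p of 0.05. Guca1b and Pdc lie left of 0 for rd10 saline against wild-type saline and right of 0 for rd10 GSK against rd10 saline, and Rcvrn, Grk1 and Rgs9 the other way round.

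Ratios of read counts between partner genes within a library do not depend on scaling. The pairs were chosen after the counts were seen. The ratio of Guca1a to Guca1b was 0.385 and 0.402 in wild-type saline, 0.465, 0.537 and 0.453 in wild-type GSK, 0.872, 1.04 and 0.849 in rd10 saline and 0.414, 0.575 and 0.688 in rd10 GSK. The rd10 saline libraries stood above all others, and rd10 GSK overlapped wild-type GSK. The ratio of Gucy2e to Gucy2f was 3.32 and 3.21 in wild-type saline, 3.63, 3.79 and 3.29 in wild-type GSK, 4.93, 6.49 and 4.55 in rd10 saline and 4.88, 4.45 and 4.03 in rd10 GSK. Here all 6 rd10 libraries lay above all 5 wild-type libraries, and the rd10 groups overlapped.

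The ratio of Rgs9 to Rgs9bp was 0.653 and 0.697 in wild-type saline, 0.753, 0.874 and 0.761 in wild-type GSK, 1.13, 0.784 and 1.15 in rd10 saline and 0.771, 0.804 and 0.838 in rd10 GSK. Replicate 2 of rd10 saline fell among the GSK libraries while the other rd10 saline libraries stood above them. The ratio of Rcvrn to Grk1 was 0.794 and 0.812 in wild-type saline, 0.773, 0.748 and 0.764 in wild-type GSK, 0.658, 0.813 and 0.635 in rd10 saline and 0.638, 0.636 and 0.590 in rd10 GSK. All rd10 GSK libraries lay below all wild-type libraries. In 16 two-sided exact permutation tests of the log2 ratios (4 ratios in 4 comparisons) the smallest p was 0.1, which is the smallest these group sizes allow, and 0.2 after Benjamini-Hochberg adjustment, so none could pass.

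**Figure D5:**
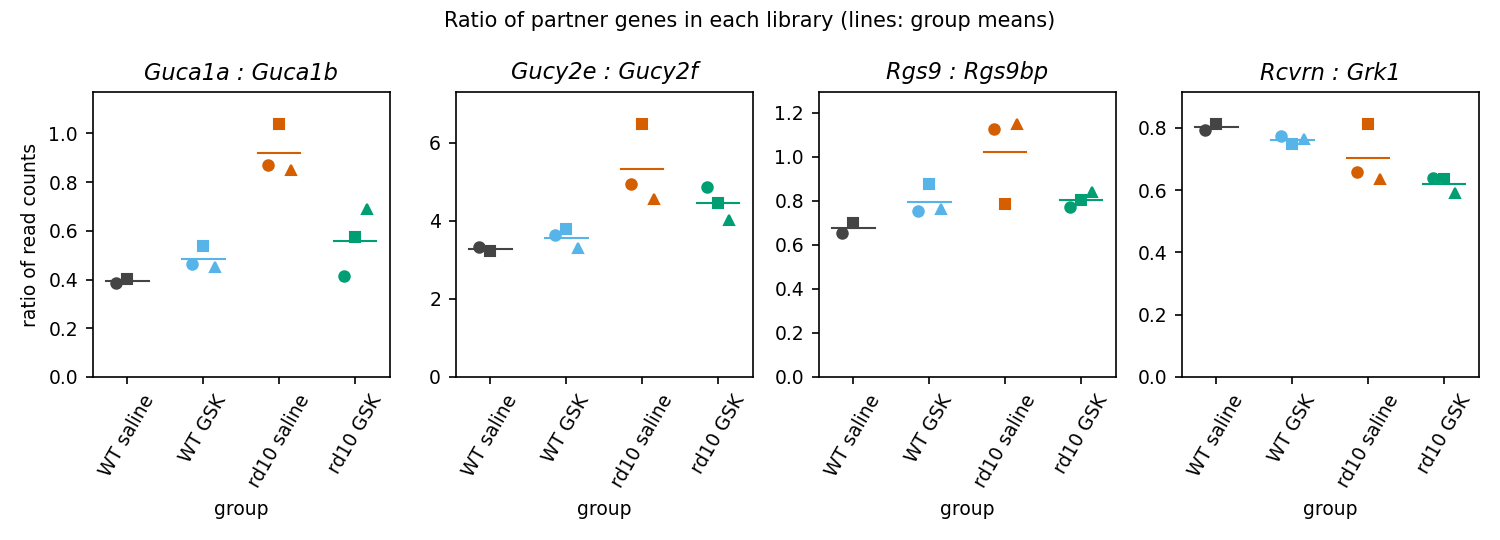
Ratio of read counts (vertical axes, starting at 0) of 4 pairs of partner genes in each library, by group (horizontal axes). Points are single animals and lines are group means. The ratio of Guca1a to Guca1b is between 0.849 and 1.04 in rd10 saline and at most 0.688 elsewhere.

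Other genes of the pathway moved in part with the 10. Of 10 partners of recovery, 7 fell in rd10 saline and 0 rose (median log2 fold change -0.79), where 21.5% of all genes were called higher and 19.0% lower. They included the photoreceptor phosphatase Ppef2 (-2.05 ± 0.20, adjusted p = 6.91e-05), the lipid-binding chaperone Unc119 (-1.66 ± 0.16, adjusted p = 2.87e-05) and Gnb5, the obligate partner of RGS9 (-1.18 ± 0.23, adjusted p = 0.00317), as well as Rd3, which is needed to carry the cyclases to the outer segment (-1.01 ± 0.06, adjusted p = 7.63e-07). The same 7 rose with GSK in rd10, where 17.6% of all genes were called higher, Unc119 by 1.31 ± 0.15, Gnb5 by 1.05 ± 0.21 and Rd3 by 0.81 ± 0.05. Rd3 reached 243, 238 and 249.7 CPM in rd10 GSK, overlapping the 234, 229 and 248 CPM of wild-type GSK. These rd10 GSK levels stayed below the 295 and 266 CPM of wild-type saline. The other 3 partners fell with GSK in rd10, where 15.2% of all genes were called lower. With libraries scaled instead to 20 genes of the inner retina, 8 of the 10 partners rose and 0 fell, so the falls of those 3 rest on the scaling. Without the lens-bearing libraries 6 of the 10 partners rose and 1 fell, with Pdcl among the calls lost (adjusted p = 0.0762). Inner retina scaling moved the median of all genes in this comparison to 0.38, and all 10 recovery genes were called higher under it. Of all genes called under it, 96.5% were higher, and the number called is given further below. Rises under this scaling are thus common and not particular to a list.

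Of 12 genes of GTP supply and cGMP breakdown, 5 fell and 2 rose in rd10 saline (median -0.08), where 19.0% and 21.5% of all genes did. With inner retina scaling 6 fell and 0 rose, and 32.6% of all genes called under it were higher. The photoreceptor enzyme Impdh1, which makes guanine nucleotides, went from 1013 and 1023 CPM to 281, 292 and 310.4 (-1.79 ± 0.16, adjusted p = 2.39e-05) and was at 535, 775 and 895 in rd10 GSK (1.32 ± 0.15, adjusted p = 0.000159 against rd10 saline). The guanylate kinase Guk1 fell by less (-0.66 ± 0.09, adjusted p = 0.000144), and the general enzymes Impdh2 (0.10 ± 0.11) and Gmps (0.05 ± 0.06) did not pass. The rod phosphodiesterase genes Pde6g (-2.65 ± 0.20, adjusted p = 1.38e-05) and Pde6b (-2.64 ± 0.20, adjusted p = 1.07e-05) had the largest falls of the list. Pde9a (0.40 ± 0.13, adjusted p = 0.0247) and Pde5a (0.34 ± 0.12, adjusted p = 0.0410), phosphodiesterases of other cells, rose. Both calls were lost with inner retina scaling (adjusted p = 0.113 and 0.243), and that of Pde5a also without the lens-bearing libraries (0.112). Under GSK in rd10, 5 of the 12 rose and 2 fell (median 0.06), where 17.6% and 15.2% of all genes did, the latter being Pde9a (-0.57 ± 0.11) and the cone subunit Pde6h (-0.42 ± 0.09). With inner retina scaling neither fall passed (adjusted p = 0.137 and 0.475), and 8 of the 12 rose, where 96.5% of all genes called were higher.

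Guanylate cyclases outside photoreceptors were counted in the same way. Of 8 such genes 6 passed the filter on low counts. In rd10 saline 1 rose and 0 fell (median 0.07), where 21.5% of all genes were called higher and 19.0% lower. The riser was Npr2, the receptor for C-type natriuretic peptide (0.41 ± 0.07, adjusted p = 0.000851). With GSK in rd10, 1 of the 6 rose and 3 fell (median -0.31), where 17.6% of all genes were called higher and 15.2% lower. Npr1, the receptor for atrial natriuretic peptide, rose from 2.10, 1.98 and 2.60 to 3.74, 4.75 and 4.02 CPM (0.90 ± 0.17, adjusted p = 0.00213). Npr2 (-0.29 ± 0.06) and the soluble cyclase subunits Gucy1b1 (-0.43 ± 0.05) and Gucy1a1 (-0.38 ± 0.06) fell, with none of the 3 passing under inner retina scaling. Npr1 also had a higher mean with GSK in wild type (0.80 ± 0.19), which did not pass (adjusted p = 0.116). Its interaction was 0.10 ± 0.25 (adjusted p = 0.850). Of 22 relatives of the 10 genes (other RGS proteins of the same family, receptor kinases, exchangers, neuronal calcium sensors and phosducin-like proteins), 2 rose and 1 fell in rd10 saline (median -0.0023), each below the share of all genes (21.5% and 19.0%). These were Rgs6 (0.33 ± 0.11), the calcium sensor Ncald (0.29 ± 0.06) and the phosducin-like Pdcl3 (-0.30 ± 0.07), and the call of Rgs6 was lost with inner retina scaling (adjusted p = 0.145) and without the lens-bearing libraries (0.146). With inner retina scaling 7 of the 22 fell and 1 rose in rd10 saline, where 32.6% of all genes called were higher. Under GSK in rd10, 1 rose and 10 fell (median -0.26), where 17.6% and 15.2% of all genes did. Among the falls, Rgs6 fell by 0.52 ± 0.10 and Rgs7bp by 0.50 ± 0.09 on the log2 scale. Without the lens-bearing libraries 8 fell, with the receptor kinase gene Grk3 (adjusted p = 0.0623) and the exchanger gene Slc8a1 (0.128) lost. With inner retina scaling 9 rose and 0 fell, where 96.5% of all genes called were higher, so the direction for these relatives also rests on the scaling.

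Over the 11 libraries, the genes whose log2 CPM followed the mean standardized profile of the 10 most closely were Abca4, the retinoid transporter of outer segment discs (Pearson r = 0.9996), Wdr17 (0.9991), Tnfaip3, the ubiquitin-editing inhibitor of NF-κB signalling (0.9988), the palmitoyltransferase gene Zdhhc2 (0.9983) and the photoreceptor axoneme gene Rp1l1 (0.9977), out of 12198 genes with a mean of at least 5 CPM. Of the 10 genes themselves, Rgs9bp (0.9997) and Slc24a1 (0.9994) lay closest to that mean and Rgs9 (0.9697) and Guca1a (0.9746) farthest, though each of the 10 contributes to it. The libraries share group, depth and composition, so these values describe likeness of pattern only.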

How the data were processed

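Polyadenylated RNA from 1 retina per animal was sequenced after stranded library preparation, per the labels' protocols. The deposited table holds raw read counts per Ensembl gene. Per the submitters' processing notes, mm9 and NCBIM37 were the builds, and bcl2fastq, HISAT2 2.1.0, HTSeq and edgeR the tools. HTSeq's version, its strand setting and the annotation were not given in the sources used here. Symbols and exon lengths came from GENCODE M21 by Ensembl identifier (32919 of 37991 named, and the 5072 others held 0.627% of counts). No exon of another annotated gene overlapped those of the 10 genes.

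Low-count genes were dropped by filterByExpr (at least 10 per library, 15 in total), and libraries were scaled by TMM and fitted with edgeR 4.0.16 (R 4.3.3) in 1 model with a coefficient per group over all 11 libraries and robust quasi-likelihood. Adjusted p-values are Benjamini-Hochberg over all 17099 tested genes. The p-values set each difference against a spread between animals that is pooled over all groups and moderated by the other genes. Alternatives used DESeq2 1.42.0 and limma 3.58.1. The 10 genes, the lists and the tests were chosen with earlier results of these data known. All 10 genes were named in each comparison, and genes of the other lists by the largest called changes at a mean of at least 1 CPM, except Gnb5, Rd3, Impdh1, Impdh2, Gmps, Guk1, Pdcl, Grk3, Slc8a1 and, with GSK, Npr2, which were named after their values were seen. Values of some other genes of the lists are not reported here.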

Additional observations from a re-analysis of the deposited data

Results flagged for a closer look

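The effect of GSK on 8 of the 10 genes differed between rd10 and wild-type retinas by the interaction term of the edgeR fit. All 8 differences were toward a higher level in rd10, where 7.49% of all tested genes were called in that direction. The difference, as the log2 change in rd10 minus that in wild type, was 2.32 for Guca1b, 2.10 for Pdc, 1.93 for Slc24a1, 1.47 for Rgs9bp, 1.44 for Gucy2f, 1.29 for Grk1, 1.20 for Rcvrn and 1.10 for Gucy2e. Gucy2f, at adjusted p = 0.0362, was the nearest to the threshold, and its call was lost on leaving out several of the single libraries, as given above.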

How the results depend on the processing

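The falls of all 10 genes in rd10 saline and their rises with GSK in rd10 kept their direction and, except for the rise of Rgs9, their call in every alternative run. Leaving out 1 library at a time gave 10 falls each time and 9 to 10 rises. The ranges of the other counts of the 10 genes on leaving out 1 library were 7 to 9 for the interaction, 3 to 9 lower in rd10 GSK than in wild-type GSK, 2 to 6 higher and 1 to 3 lower relative to the rod genes in rd10 saline, and 2 to 3 higher and 1 to 4 lower relative to them with GSK. Without the lens-bearing libraries the counts were 5 for the interaction, 3 in rd10 GSK against wild-type GSK, 2 and 1 relative to the rod genes in rd10 saline, and 1 lower relative to them with GSK. With Sag and Pde6g left out of the rod reference 1 gene was lower in rd10 saline. Fitting only the wild-type groups gave 2 higher and 1 lower with GSK, against 0.

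Over all genes, 6919 were called in rd10 saline against wild-type saline (4435 to 7506 leaving out 1 library, and 4081 without the lens-bearing libraries). With GSK in rd10 5621 were called (4359 to 6346, but 10073 with inner retina scaling and 3588 with only the rd10 groups fitted). In wild type 91 were called with GSK (12 to 182 leaving out 1 library, 12 without the lens-bearing libraries, 193 by DESeq2 and 916 with only the wild-type groups). The interaction gave 2131 (864 to 3139, 524 without the lens-bearing libraries and 6420 with inner retina scaling), and rd10 GSK against wild-type GSK 4484 (2515 to 5694, 2213 and 6757 in the same settings). With inner retina scaling, higher genes made up 96.5% of those called with GSK in rd10 (53.6% otherwise), 32.6% in rd10 saline (53.0%), 96.9% for the interaction (60.1%) and 92.2% in rd10 GSK against wild-type GSK (58.5%).

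For the recovery and cGMP synthesis genes, changes of sign were found only for values that did not pass in either setting. Of the other lists, some genes called lower with GSK in rd10 were called higher with inner retina scaling. In wild type with GSK, Gucy2e was at -0.023 with the replicate block and ran from -1.65e-05 (without wild-type saline replicate 2) to 0.102 as single libraries were left out. Rgs9bp was at 0.029 with inner retina scaling and at 0.024, 0.0027 and 0.0070 without wild-type saline replicate 1, wild-type GSK replicate 1 and replicate 2, with a lowest value of -0.044. Slc24a1 was at -0.11 with the replicate block, -0.010 and -0.0085 without wild-type saline replicate 2 and wild-type GSK replicate 3 (highest 0.018), and -0.0080 without the lens-bearing libraries, and Pdc was at -0.011 with the replicate block. Relative to the rod genes, Gucy2f in rd10 saline was at 0.15 without rd10 saline replicate 2 (lowest -0.15) and 0.069 with Sag and Pde6g left out, and Guca1a with GSK was at 0.040 without rd10 saline replicate 2 and 0.071 without rd10 GSK replicate 1 (lowest -0.19). The cause was not tested.

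Replicate numbers did not pair the samples: 6 of 15 same-numbered pairs had correlated deviations over 0.1 (from -0.19 to 0.39), and 4 of 11 libraries correlated best with their own number. With the number as a replicate block the counts of the 10 genes were 10 lower in rd10 saline, 10 higher with GSK in rd10, 8 for the interaction and 7 in rd10 GSK against wild-type GSK, and 38 genes were called in wild type with GSK.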
